A study of Arabidopsis thaliana with 6 samples.

Results

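The 5 genes described here are transcription factor genes that set the upper and lower sides of plant organs and their outgrowth: YAB3, YAB5, PHV, JAG and NGA4. They were taken by name from the probe sets that the platform annotation assigns to a single gene, 1 probe set for each, out of 9532 genes so named on 9631 probe sets. They were measured in Arabidopsis thaliana embryos on 6 one-colour arrays, 3 for each genotype, with 300 embryos pooled per sample. The mutant embryos were homozygous dcl1-15/dcl1-15 and came from DCL1/dcl1-15 plants, in siliques whose normal siblings had reached the torpedo stage, when the cotyledons elongate. The wild-type embryos were DCL1/DCL1, at the torpedo stage themselves, and came from DCL1/DCL1 plants that segregated from the same kind of heterozygous parent. The mother plants of the groups therefore differed in genotype, and the mutant embryos were staged by their siblings. Both groups share a Ws background crossed repeatedly to Landsberg erecta, an accession that carries a mutant erecta allele. Per the labels the samples are biological replicates, without a statement of what was separate, so the p-values measure the spread between these samples.

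The Dicer-like enzyme made from DCL1 releases most plant microRNAs from their longer precursors. Lateral organs, cotyledons included, form with an adaxial (upper) side and an abaxial (lower) side, and the blade grows out where the sides meet. On the adaxial side act the class III homeodomain leucine zipper (HD-ZIP III) factors, whose transcripts miR166 cuts and thereby keeps out of the abaxial side. On the abaxial side act the KANADI and YABBY factors, together with auxin response factors that trans-acting siRNAs restrict. JAG and the NGATHA factors act on the growth and shape of the organs that follow. The comparison asks how transcripts of these genes differ where microRNA production is impaired.

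Levels are normalized log2 values as deposited, and a difference is the dcl1-15 mean minus the wild-type mean on the log2 scale. A gene is said to have risen or fallen if limma's adjusted p over all 17122 probe sets was under 0.05. YAB3 and JAG fell, NGA4 rose, and YAB5 and PHV did not pass. So 3 of the 5 were called, beside 39.1% of all probe sets tested, and in 4 of the 5 the values of the 2 genotypes did not overlap, as in 52.5% of all probe sets. The difference in so many probe sets limits what a call says of any 1 gene. In pooled embryos, fewer cells of a type and less RNA per cell cannot be told apart.

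**Figure D1:**
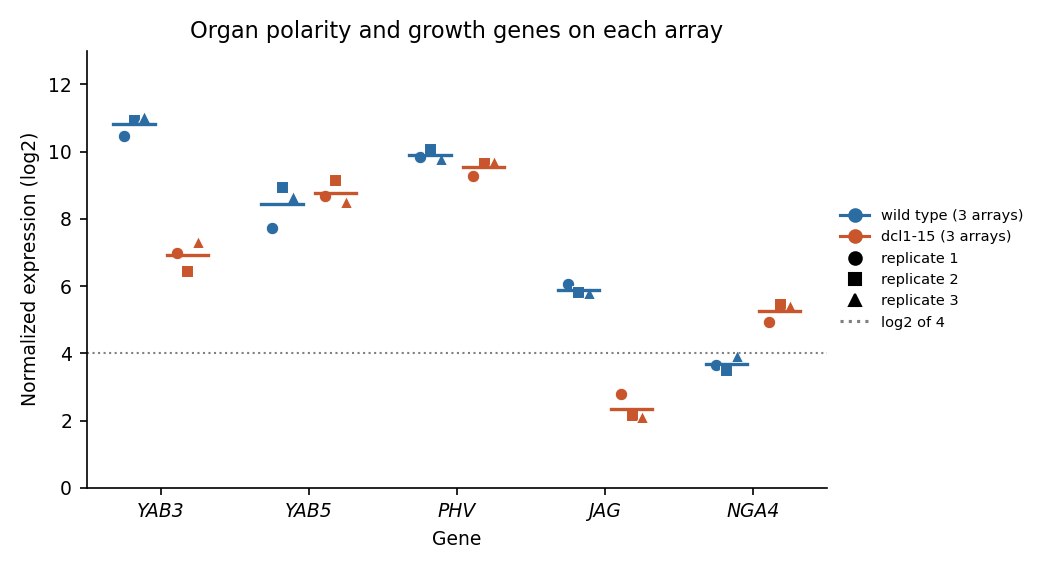
Normalized expression (log2, y axis) of the 5 genes (x axis) on each array, with wild type in blue, dcl1-15 in orange, 1 symbol per replicate number and a bar at each mean. The YAB3 and JAG values are lower on every dcl1-15 array, NGA4 values are higher, YAB5 values overlap and PHV values are separated by a narrow gap; the dotted line marks log2 of 4.

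YAB3 (AT4G00180) is a YABBY gene of the abaxial side, which acts with its close relative FIL in organ growth and polarity. It measured 10.47, 10.94 and 11.04 on wild-type arrays 1 to 3 and 6.98, 6.44 and 7.31 on dcl1-15 arrays 1 to 3. Every wild-type value lay above 10 and every mutant value below 8, so the groups were far apart. YAB3 fell from 10.82 ± 0.30 to 6.91 ± 0.44 (SD, n = 3 each), a difference of -3.90 ± 0.26 (SE) with a 95% interval from -4.49 to -3.32 (limma adjusted p = 1.71e-05). This is 15.0-fold, and the fall ranked 40 of 17122 probe sets. Its transcript was still at 6.44 or more on each mutant array, above the low end of the scale, and the fall was -3.90 with values under log2 of 4 raised to 4.

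YAB5 (AT2G26580) is another YABBY gene that leaves express. It measured 7.72, 8.94 and 8.66 in wild type and 8.68, 9.15 and 8.50 in dcl1-15. The ranges overlapped, with wild-type array 1 the lowest of all. The means were 8.44 ± 0.64 and 8.78 ± 0.33, and the difference of 0.34 ± 0.32 (SE) did not pass (adjusted p = 0.441). Its 95% interval ran from -0.40 to 1.07, which does not reach the change measured for YAB3 but leaves room for a rise of up to 1.07. The sign rested on wild-type array 1, since the difference was -0.02 without it.

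FIL, YAB2, CRC, INO and the 4 KANADI genes were not analysed here, so YAB3 and YAB5 were the 2 measured genes of the 10 listed for the abaxial side. Because both lie on the same arrays, their log ratio is free of any scaling of a whole array. The YAB3 minus YAB5 log ratio was 2.38 ± 0.38 (SD) in wild type and -1.86 ± 0.77 in dcl1-15, a shift of -4.24. The 3 wild-type ratios lay between 2.00 and 2.76 and the 3 mutant ratios between -2.70 and -1.19. A two-sided exact permutation test over the 6 arrays gave p = 0.10, the smallest that 3 against 3 arrays allow, and 0.133 adjusted over the 4 pairs compared. With labels exchanged only within same-numbered arrays, the smallest p possible is 0.25, and this pair gave 0.25.

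PHV (AT1G30490) encodes an HD-ZIP III factor of the adaxial side and is a target of miR166. It measured 9.84, 10.08 and 9.78 in wild type and 9.28, 9.66 and 9.70 in dcl1-15. All mutant values lay below all wild-type values, by a gap smaller than the spread within either group. The means were 9.90 ± 0.16 and 9.55 ± 0.23, and the difference of -0.36 ± 0.17 (SE) did not pass (adjusted p = 0.123, unadjusted p = 0.0635). The 95% interval of the difference, from -0.74 to 0.02, holds no rise above 0.02. Over 15 alternative treatments of the data its difference lay between -0.49 and -0.22 and its adjusted p between 0.0643 and 0.383.

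PHV was the 1 measured gene of 12 listed for the adaxial side, and PHB, REV, AS1 and AS2 were not analysed here. The PHV minus YAB3 log ratio, adaxial over abaxial gene, was -0.91 ± 0.31 in wild type and 2.63 ± 0.50 in dcl1-15. It was negative on all 3 wild-type arrays and above 2 on all 3 mutant arrays, a shift of 3.55 (exact permutation p = 0.10, and 0.133 adjusted over the 4 pairs). The PHV minus YAB5 log ratio went from 1.46 ± 0.57 to 0.77 ± 0.38, with overlapping values (exact permutation p = 0.30, also after adjustment). The shift between the PHV and YAB3 signals therefore had no counterpart of like size between PHV and YAB5. The size of every such shift follows from the differences of the single genes, so it is not a separate result.

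**Figure D2:**
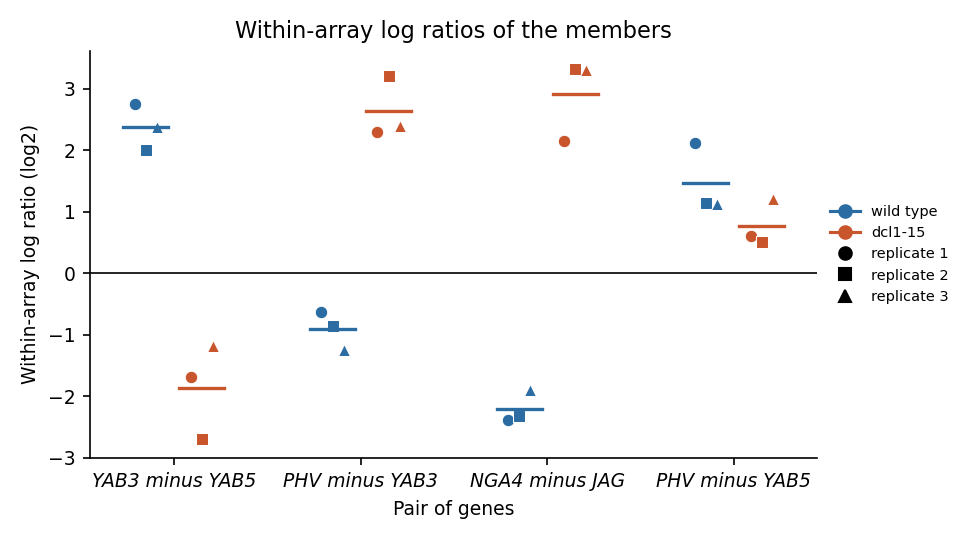
Within-array log2 ratio (y axis) of 4 pairs of genes (x axis) on each array, with wild type in blue, dcl1-15 in orange, 1 symbol per replicate number and a bar at each mean. The pairs with YAB3 and the NGA4 minus JAG pair change sign between genotypes on all 3 arrays of each, while the PHV minus YAB5 ratios overlap; the zero of a ratio has no meaning of its own, since probe sets differ in brightness.

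The other regulators around polarity that were measured did not pass. AGO7, the Argonaute that starts the trans-acting siRNAs of the polarity pathway, measured 4.52 ± 0.29 in wild type and 4.83 ± 0.46 in dcl1-15, a difference of 0.31 (adjusted p = 0.442). SEU, a transcriptional co-regulator known to work with YABBY proteins, measured 8.67 ± 0.54 and 8.80 ± 0.28, a difference of 0.13 (adjusted p = 0.745).

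JAG (AT1G68480) encodes a zinc finger factor that promotes growth of the organ blade toward the tip. It measured 6.05, 5.84 and 5.80 in wild type and 2.78, 2.16 and 2.10 in dcl1-15. The 3 wild-type values were close together, and all 3 mutant values lay under 3, near the low end of the scale. JAG fell from 5.90 ± 0.13 to 2.35 ± 0.38, a difference of -3.55 ± 0.25 (SE) with a 95% interval from -4.12 to -2.98 (adjusted p = 2.40e-05). Since a value near 2 has no stated distance from background, the 11.7-fold size depends on how low values are treated, and with values under log2 of 4 raised to 4 the fall was -1.90 (3.72-fold, adjusted p = 4.79e-04). Without the floor the intervals of the YAB3 and JAG differences overlap, so their order is not resolved. With it they do not overlap, at -4.64 to -3.17 for YAB3 and -2.09 to -1.70 for JAG. The floor sets all 3 mutant JAG values to 4 and changes no YAB3 value. It thus limits how far JAG can fall, and its JAG interval holds no spread among the mutant arrays. The order therefore depends on how low values are treated.

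NUB, the closest relative of JAG and partly redundant with it, fell as well. It measured 3.27, 5.28 and 4.54 in wild type and 1.75, 1.75 and 1.65 in dcl1-15, a scattered group above a tight and very low one. NUB fell by 2.64 on the log2 scale (SE 0.43, adjusted p = 0.00176), and the call was lost with the floor at log2 of 4 (-0.61, adjusted p = 0.284).

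NGA4 (AT4G01500) is 1 of 4 NGATHA genes, which encode B3-domain factors that act redundantly in leaf margin growth and style development. It measured 3.67, 3.51 and 3.91 in wild type and 4.93, 5.47 and 5.41 in dcl1-15. No wild-type value reached 4 and every mutant value exceeded it. NGA4 rose from 3.69 ± 0.20 to 5.27 ± 0.30, a difference of 1.57 ± 0.25 (SE) or 2.98-fold (95% interval 1.01 to 2.14, adjusted p = 0.00152). With the floor at log2 of 4 the rise was 1.27, or 2.41-fold (adjusted p = 0.00716). Of all probe sets, 18.3% rose and 20.8% fell.

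All 4 NGATHA genes were measured, and they did not move one way. NGA1 measured 5.55, 5.22 and 5.55 in wild type and 2.36, 2.41 and 2.76 in dcl1-15 and fell by 2.93 on the log2 scale (SE 0.22, adjusted p = 3.41e-05). With the floor at log2 of 4 its fall was -1.44, or 2.71-fold against 7.62-fold. NGA2 measured 6.20, 5.78 and 5.74 in wild type and 4.24, 4.30 and 4.48 in dcl1-15 and fell by 1.57 (SE 0.24, adjusted p = 0.00140), with all 6 values above 4. The 95% intervals of NGA1 and NGA2 lay wholly below 0 and that of NGA4 wholly above it.

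NGA3 measured 4.01, 3.07 and 2.72 in wild type and 2.59, 2.06 and 2.67 in dcl1-15, low throughout. Its difference of -0.83 ± 0.33 (SE) did not pass (adjusted p = 0.0751), whereas in the fit blocked on replicate number it fell (adjusted p = 0.0273). It also fell with centring on the 4 reference genes (adjusted p = 0.0461) and without wild-type replicate 3 (-1.10, adjusted p = 0.0328), and without wild-type replicate 1 its difference was -0.46 (adjusted p = 0.115). With the floor its difference was -0.0046, since 1 of its 6 values exceeds log2 of 4. In the RefSeq gene order of assembly TAIR10.1, NGA3 and DCL1 are neighbours with 0 protein-coding genes between them. The genotypes were selected at DCL1, so an effect of the mutation and of sequence linked to it cannot be told apart for NGA3.

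**Figure D3:**
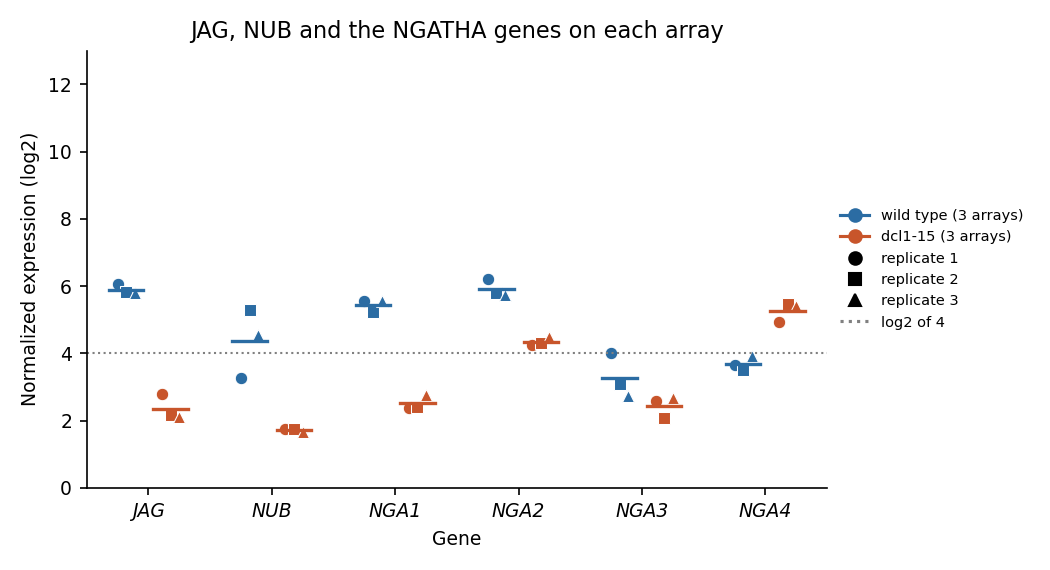
Normalized expression (log2, y axis) of JAG, its relative NUB and the 4 NGATHA genes (x axis) on each array, drawn as in the plot of the 5 genes. JAG, NUB and NGA1 lie under log2 of 4 (dotted line) on all dcl1-15 arrays, NGA2 stays above it on all 6, and NGA4 crosses it upward.

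The growth genes JAG and NGA4 differed between genotypes in opposite directions. The NGA4 minus JAG log ratio was -2.20 ± 0.27 in wild type and 2.92 ± 0.67 in dcl1-15. The 3 wild-type ratios lay between -2.38 and -1.90 and the 3 mutant ratios between 2.14 and 3.32, a shift of 5.12 (exact permutation p = 0.10, and 0.133 adjusted over the 4 pairs). All mutant JAG values and all wild-type NGA4 values lie under log2 of 4, and with the floor there the shift was 3.17. Of the other listed genes of organ growth, ARL, an ARGOS relative that promotes cell expansion, differed by -0.12 (adjusted p = 0.754). SPT, a bHLH factor that restrains organ size and patterns the carpel, differed by 0.22 (adjusted p = 0.517).

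Of 115 genes listed for polarity, organ growth, boundaries and the shoot meristem, 15 were measured, the 5 genes included. Among the 15, 7 fell, 1 rose and 7 did not pass, with a median difference of -0.75, beside -0.07 over all probe sets, of which 20.8% fell and 18.3% rose. The 10 genes other than the 5 held 5 falls, with a median of -0.79. Beyond NUB, NGA1 and NGA2 these were CLV3, whose peptide restricts the stem cells of the shoot tip, and LAS, a GRAS factor of axillary meristems. CLV3 fell by 1.44 and LAS by 0.75, with every value of both under log2 of 4, so neither differed with the floor. With the floor 4 of the 15 fell, YAB3, JAG, NGA1 and NGA2, and NGA4 rose.

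A further 20 genes of organ shape, boundaries and local auxin synthesis, listed after it was known which gene names the table holds, were counted the same way. Of these, 5 fell, 3 rose and 12 did not pass, with a median of -0.22, a share of calls near the 39.1% of all probe sets. ROXY1, a glutaredoxin gene of petal development, fell from 7.17 ± 0.68 to 4.72 ± 0.50, a difference of -2.45 ± 0.39 (SE) (adjusted p = 0.00174). PTL, a trihelix factor that restrains growth between sepals, fell by 1.95, while UFO and SAP, F-box genes of floral organs, fell by 1.03 and 1.01. YUC2, an auxin synthesis gene, fell by 0.48 from a level under log2 of 3, and did not pass without replicate 2 or 3 of either genotype (adjusted p = 0.0810 to 0.117). The risers were LSH5, which carries an ALOG domain, by 1.87, IDD16, an indeterminate-domain zinc finger gene, by 1.22 and HWS, an F-box gene that limits organ growth, by 0.78. HWS did not pass when any one of those same arrays, numbered 2 or 3, was left out (adjusted p = 0.0777 to 0.121). With the floor at log2 of 4, ROXY1 was the 1 gene of the 20 that fell, and 2 rose, LSH5 and HWS.

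**Figure D4:**
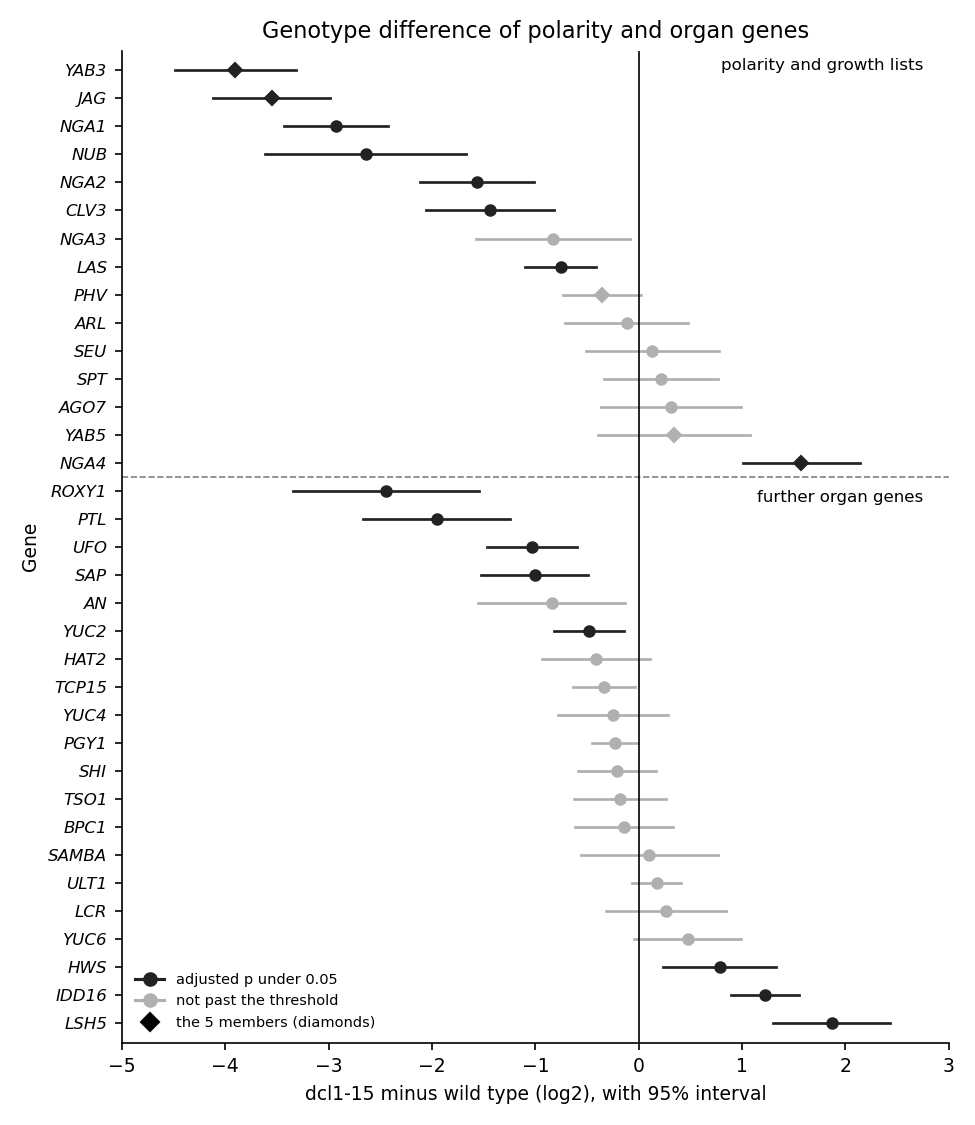
Difference between dcl1-15 and wild type (log2, x axis) with its 95% interval for the 15 measured polarity and growth genes (above the dashed line) and 20 further organ genes (below it), black where the adjusted p was under 0.05 and grey otherwise. YAB3 at -3.90 and JAG at -3.55 lie lowest, NGA4 at 1.57 is the 1 gene of the 15 that rose, and the intervals of PHV and YAB5 include 0.

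A few markers of seed coat and endosperm were also measured, and most of those measured were higher in dcl1-15. All 3 measured seed coat markers of 16 listed rose (BAN, DFR and DELTA-VPE, median difference 1.85). Of 16 listed endosperm markers 4 were measured, and 3 rose (SWEET11, SAG29 and MPC, median over the 4 of 1.15). Beside these counts, 18.3% of all probe sets rose, and most listed markers of both tissues were not measured. With the floor at log2 of 4, SWEET11 and SAG29 still rose, BAN did not pass (adjusted p = 0.251) and MPC no longer differed. DFR and DELTA-VPE did not pass either (limma adjusted p = 0.130 and 0.0872), although all their values lie above the floor. Their differences stayed at 1.70 and 2.15, while the SE that limma gives went from 0.50 to 0.64 and from 0.52 to 0.68. The loss of these calls therefore does not come from low values of DFR or DELTA-VPE. BAN and DFR also missed the threshold when dcl1-15 replicate 2 was left out (adjusted p = 0.0613 and 0.0948) or replicate 3 was (adjusted p = 0.0647 and 0.0957), and MPC without replicate 2 of either genotype (adjusted p = 0.0560 without that of wild type and 0.0531 without that of dcl1-15). Summed on the linear scale, the seed coat markers were at 249, 1261 and 640 on wild-type arrays 1 to 3. They ranged from 1772 to 2950 in dcl1-15. The sums of the endosperm markers ranged from 522 to 696 in wild type and from 2102 to 2377 in dcl1-15. BAN lay under log2 of 4 on all wild-type arrays, and MPC and IKU1 on all 6, so the endosperm sums rest on SWEET11 and SAG29. Whether SWEET11 and SAG29 mark endosperm apart from seed coat was not tested. Of 19 embryo markers 2 were measured, of which BBM, an AP2-type factor of embryonic growth, fell by 1.59 and EEL, a bZIP gene active late in embryogenesis, rose by 0.88. The part of these shifts in the values of YAB3, JAG and NGA4 was not tested. The 4 measured reference genes differed by -0.12 to 0.39 and none passed (lowest limma adjusted p = 0.0729, with 1 of the 4 at an unadjusted p under 0.05). With the floor AT2G28390 rose (limma adjusted p = 0.0108), although the floor changed none of its values. Its difference stayed at 0.39, while the SE that limma gives went from 0.15 to 0.056.

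The genes with a symbol whose 6 values, each centred on their own mean, lay nearest to those of each gene were found among 1287 others. They were picked for likeness on these same arrays. Like differences, calls and array patterns therefore follow largely from the choice and are not separate results. Nearest to YAB3 was JAG, at a root mean square difference of 0.44 on the log2 scale over the 6 arrays. The next were GH9B13, a glycosyl hydrolase family 9 gene, at 0.46 and GID1B, a gibberellin receptor gene, at 0.52. GID1B measured 1.69, 1.70 and 1.66 on the mutant arrays, all under log2 of 4. Nearest to JAG were JKD, a zinc finger factor of root ground tissue, at 0.20, SWEET9, a sugar transporter gene, at 0.23 and GID1B at 0.30. JKD fell from 6.64 ± 0.29 to 3.33 ± 0.37, a difference of -3.32 beside -3.55 for JAG.

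Nearest to NGA4 were RALFL28, which encodes a RALF-like signal peptide, at 0.080, the cytochrome P450 gene CYP71B35 at 0.11 and the subtilase gene SBTI1.1 at 0.16, which rose by 1.55, 1.54 and 1.61. Nearest to YAB5 were COAD, a gene of coenzyme A synthesis, at 0.16, ATN1 at 0.20 and RAPTOR2, which encodes a partner of the TOR kinase, at 0.20. Like YAB5, all 3 had their lowest value on wild-type array 1, and they did not pass. Nearest to PHV were SAL2 at 0.081, IGPD, a gene of histidine synthesis, at 0.088 and FTSZ2-1, a plastid division gene, at 0.089, and these 3 did not pass, though IGPD fell in the fit blocked on replicate number (adjusted p = 0.0382).

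Differences between arrays of the same replicate number are given here, although the pairing among numbers 2 and 3 is uncertain. For YAB3 they were -3.49, -4.50 and -3.73 for numbers 1 to 3, for JAG -3.27, -3.68 and -3.70, and for NGA4 they lay between 1.26 and 1.96. The genotypes do not overlap for these 3 genes, so any matching of wild-type to mutant arrays would give the same direction. For PHV, whose genotypes do not overlap either, the differences were -0.56, -0.43 and -0.08. For YAB5 they were 0.97, 0.21 and -0.16, of mixed sign.

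**Figure D5:**
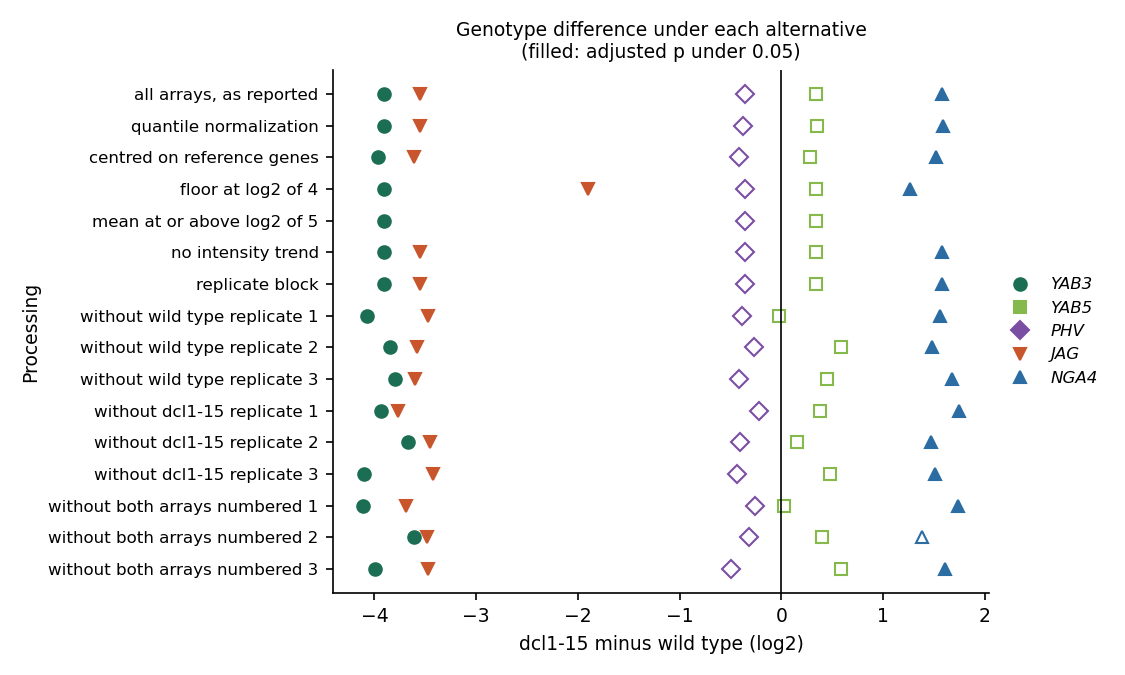
Difference between dcl1-15 and wild type (log2, x axis) of the 5 genes with all arrays and under each alternative treatment of the data (y axis), filled where the adjusted p was under 0.05. YAB3 stays between -4.11 and -3.61, JAG moves to -1.90 with the floor at log2 of 4, NGA4 loses its call without both arrays numbered 2, and PHV and YAB5 are open symbols throughout.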

How the data were processed

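The authors deposited normalized log2 values for 17159 probe sets of a 1-colour array. Per the labels' protocols, 50 ng of RNA was amplified into biotin-labelled cDNA. GCRMA and MAS5 are both named, per the submitters' processing notes, without saying which made these values. The choice of rows is not stated. Detection calls and scanner files were not used here.

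The 37 control probe sets were set aside and 17122 tested. The platform annotation named 1 gene for 9631 of them, several for 365 and none for 7126, of which 9584 matched a gene identifier of the RefSeq table (TAIR10.1), the source of symbols and gene order. No single-gene probe set carries DCL1, so its level was not analysed here as a check of the labels. The brightest probe set stood for a gene that has several, and each of the 5 has 1. Array medians lay between 6.34 and 6.48, and precision is limited by how many arrays there are.

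The test was limma's (version 3.58.1, R 4.3.3: lmFit, eBayes with an intensity trend, Benjamini-Hochberg over all probe sets), tested on simulated data. The deviations of same-numbered arrays from their group means correlated at 0.48, 0.21 and 0.36, all above 0.1, so the numbers were taken to pair the samples, though the labels do not say what a number marks. Some arrays of unlike number also correlated above 0.1, at 0.31 for wild type 2 and dcl1-15 3, above the 0.21 of the arrays numbered 2, and at 0.15 for wild type 3 and dcl1-15 2, so pairing among numbers 2 and 3 is uncertain. Alternatives were quantile normalization, centring on the 4 measured reference genes, a floor at log2 of 4, a minimum mean of 5, no trend, the replicate block and leaving out arrays. The genes and lists were chosen with earlier results of these data known. The genes named are the 5, list members past the threshold, measured YABBY, HD-ZIP III, NGATHA and reference genes, and the 3 nearest profiles of each of the 5. Other list members were named after their values were seen.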

Additional observations from a re-analysis of the deposited data

How the results depend on the processing

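YAB3 and JAG kept their fall in every alternative that tested them, 15 and 14, YAB3 between -4.11 and -3.61 and JAG between -3.77 and -1.90, the last with the floor at log2 of 4. With the replicate number as a block the differences of the 5 genes were the same, YAB3 -3.90, JAG -3.55, NGA4 1.57, YAB5 0.34 and PHV -0.36. The pairing changed no call among them, and of the other genes named above it changed those of NGA3 and IGPD. Among the 20 further organ genes AN and PGY1 also fell and YUC6 rose with the block (limma adjusted p = 0.00264, 0.0383 and 0.0250). That made 7 falls and 4 rises among the 20, and over all probe sets 3834 rose and 4591 fell with the block. NGA4 did not pass without both arrays numbered 2 (1.38, adjusted p = 0.0538, chosen after seeing the data), a fit with fewer arrays. YAB5 ranged from -0.023 to 0.59 with 1 array left out. JAG and NGA4 have means under log2 of 5 and were not tested with that minimum, and no gene of the 5 has another single-gene probe set. Of the 15 polarity and growth genes, 4 fell with the floor, and 2 fell and 0 rose with the minimum mean, which tests fewer genes. Without both arrays numbered 1, 2 rose, SPT being added, and 0 rose without both numbered 2. Of the 20 further organ genes 1 fell with the floor, 1 with the minimum mean and 2 without both arrays numbered 2. Over all probe sets 1886 rose and 2275 fell with the floor, and 1967 rose with the minimum mean. With both arrays numbered 2 left out 1327 rose and 1166 fell, and with both numbered 3 left out 1702 rose and 1449 fell. With both numbered 1 left out 3990 rose and 4915 fell, more than the 3140 and 3562 with all arrays. With 1 array left out, 2193 to 3513 rose and 2293 to 4463 fell, the lowest without dcl1-15 replicate 2 and the highest without wild-type replicate 1. The 4 within-array log ratios kept their sign under each alternative run, that of NGA4 minus JAG moving from 5.12 to 3.17 with the floor. Where fewer arrays or probe sets do not account for a change, the cause was not tested.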
